A study of Mus musculus with 3 samples.

Results

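Capture Hi-C (CHi-C) Sample 3 was compared with CHi-C Samples 4 and 5, using every di-tag of the lists with duplicates removed that had both ends on chromosomes 1 to 19. These are all 3 mouse samples analysed here, and the comparison is of 1 sample with 2. A di-tag is a pair of reads from a pair of ligated chromatin fragments, recorded as a chromosome, a base position and a strand for each end. The di-tags used numbered 9006237 of 9376907 in Sample 3, 8269676 of 8596799 in Sample 4 and 8462585 of 8821161 in Sample 5, or 96.0%, 96.2% and 95.9%. All 3 samples carry the strain label C57BL/6 and the cell type label embryonic stem cells, and no treatment, age or genotype is given. The labels of Sample 3 go against each other, because its source is given as foetal liver cells, whereas the source of Samples 4 and 5 is given as embryonic stem cells. The study's text places all of them in embryonic stem cells. Gene positions on mm9, the build named in the submitters' processing notes, were not used here, so no gene is named and the cell labels were not checked against marker genes. Each group is called by its sample number below.

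Hi-C records which parts of the genome lie close together in the fixed nucleus. Contacts within a chromosome (cis) become rarer as the distance between the ends grows, whereas contacts between chromosomes (trans) include encounters of neighbouring chromosome territories as well as random ligation of free fragments. In the capture variant, chosen fragments are enriched before sequencing, so coverage is uneven by design. Mouse autosomes have their centromere at one end, so that position along a chromosome also runs from the centromere to the distal telomere.

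Samples 4 and 5 set the level of variation against which Sample 3 was read. For measures over many regions or pairs, the noise limit was the 99th percentile of the absolute difference between Samples 4 and 5. Sample 3 was said to stand apart where it lay outside their range by more than this limit from the nearer of them. No p-value is given, since 1 sample against 2 allows 3 arrangements and an exact permutation test could not go below 0.333. Whether the samples came from separate cultures or animals is not stated. Their spread may therefore be technical. The 95% intervals given are exact binomial intervals and cover counting error only.

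Fewer of the contacts of Sample 3 joined different chromosomes. The trans share was 50.8% of di-tags in Sample 3 (interval 50.7 to 50.8%), 66.7% in Sample 4 (66.6 to 66.7%) and 70.8% in Sample 5 (70.8 to 70.9%). Sample 3 lay 17.98 percentage points below the mean of the others, 68.7% ± 2.95 (SD, n = 2), whereas Samples 4 and 5 differed by 4.17 points. The lower trans share was seen on every autosome. Of the di-tag ends on a chromosome, those whose partner lay on the same chromosome made up 41.9 to 55.5% in Sample 3, 28.9 to 37.8% in Sample 4 and 25.2 to 33.1% in Sample 5. The lowest value of Sample 3 was thus above the highest of Samples 4 and 5. In each sample the lowest share was that of chromosome 18 and the highest that of chromosome 11. The study's text takes a high ratio of trans to cis contacts as a mark of a poor library. With duplicates retained, Samples 3, 4 and 5 had 65249773, 47432090 and 44101217 di-tags on these chromosomes, against 9006237, 8269676 and 8462585 used. The part of library quality in the differences described here was not tested.

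The cis contacts of Sample 3 reached further. Of its cis di-tags, 61.8% spanned more than 1 Mb (interval 61.7 to 61.8%), against 31.7% in Sample 4 (31.7 to 31.8%) and 32.1% in Sample 5 (32.1 to 32.2%). Sample 3 was 29.8 percentage points above the mean of the others, and these differed from each other by 0.410 points. The median distance between the ends of a cis di-tag was 3.59 Mb in Sample 3, 0.172 Mb in Sample 4 and 0.156 Mb in Sample 5. Taken over all di-tags, cis contacts beyond 1 Mb made up 30.4% in Sample 3, 10.6% in Sample 4 and 9.38% in Sample 5, a share 3.05 times that of the mean of the others. At the other end, 6.78% of the cis di-tags of Sample 3 lay under 10 kb, compared with 22.2% and 24.4% in Samples 4 and 5. Di-tags at this range were not balanced between strands. Both ends had the same strand in 92.3%, 93.7% and 93.9% of di-tags under 1 kb and in 60.1%, 63.2% and 62.7% from 5 to 10 kb, against 50.0% beyond 1 Mb in each sample. From 10 to 20 kb the ends pointed towards each other in 20.9% of di-tags and away in 28.2% in Sample 3, against 15.3% and 32.7% in Sample 4 and 15.04% and 33.7% in Sample 5. From 20 to 50 kb the same shares were 23.4% and 26.7% in Sample 3, 20.3% and 31.3% in Sample 4 and 20.2% and 31.4% in Sample 5. The part of this imbalance in the values under 50 kb, here and in the densities below, was not tested.

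Cis di-tags were divided into 14 bins of distance. Sample 3 had a lower share than both other samples in 8 bins and a higher share in 6, and in 13 of the 14 its gap to the nearer sample was wider than the difference between Samples 4 and 5. The exception was the bin from 500 kb to 1 Mb, which held 6.34%, 6.16% and 5.70% of the cis di-tags of Samples 3, 4 and 5. In every shorter bin Sample 3 was the lowest. From there to 20 Mb the excess of Sample 3 grew with distance. The bin from 1 to 2 Mb held 6.14% of its cis di-tags, against 4.11% and 3.86%. Between 5 and 10 Mb the shares were 9.70%, 3.44% and 3.35%. The excess was largest between 10 and 20 Mb, where 15.3% of the cis di-tags of Sample 3 fell, compared with 5.04% in Sample 4 and 4.85% in Sample 5, 3.10 times their mean. The bin from 20 to 50 Mb was the fullest of all in Sample 3, with 17.3% against 8.89% and 8.99%. At larger distances the order of the shares of cis turned. Between 50 and 100 Mb the share was 3.46% in Sample 3, against 4.92% and 5.61% in Samples 4 and 5, and beyond 100 Mb it was 0.549%, 1.24% and 1.49%. As a share of all di-tags, Sample 3 was still the highest between 50 and 100 Mb (1.71%, against 1.64% and 1.64%). Beyond 100 Mb it was the lowest on that scale too (0.270%, 0.412% and 0.435%).

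**Figure D1:**
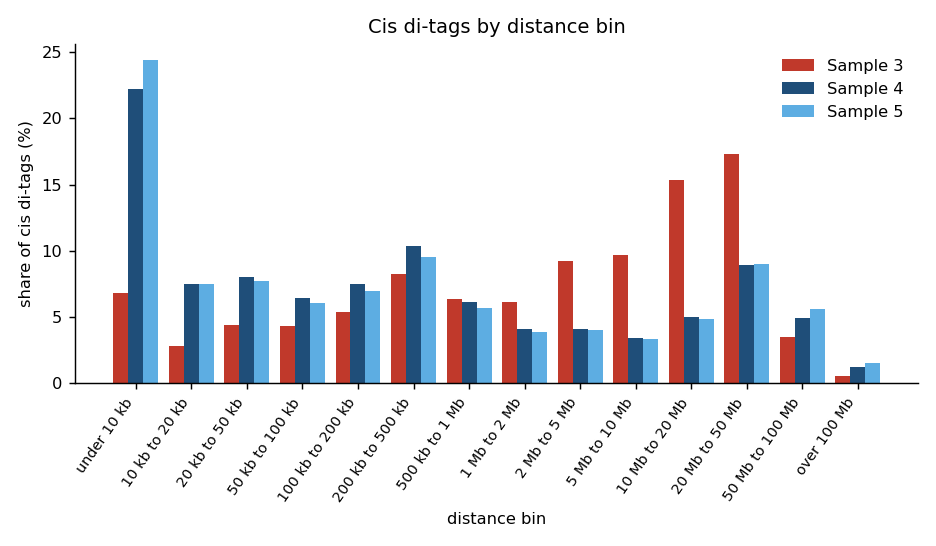
Share of cis di-tags (%) in each distance bin, with 1 bar for each sample. Sample 3 is lowest in every bin under 500 kb and highest in every bin from 500 kb to 50 Mb, reaching 17.3% between 20 and 50 Mb, and it is again lowest beyond 50 Mb.

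Shares within cis depend on one another, so contact density was also set against the trans density of the same sample, as di-tags per possible pair of positions. Between 10 and 20 kb the density of cis contacts was 3212 times that in trans in Sample 3, against 4380 and 3608 times in Samples 4 and 5. Sample 3 was the lowest in this bin, but the highest from 20 to 50 kb, with 1648 against 1567 and 1238, and in every bin from there to 100 Mb. This scale carries the lower trans density of Sample 3 into every bin. As a share of all di-tags, Sample 3 was the lowest from 20 to 50 kb too (2.15%, against 2.69% and 2.25%) and between the others from 50 to 100 kb (2.11%, against 2.15% and 1.76%), and as a share of cis di-tags it was the lowest up to 500 kb. Between 1 and 2 Mb the values were 70.3, 24.3 and 18.8. Between 10 and 20 Mb the density in Sample 3 was still 19.6 times that in trans, against 3.32 and 2.64 times. Between 50 and 100 Mb they drew together, at 1.82, 1.33 and 1.25. Over all distances beyond 100 Mb, the density was 1.01 times that in trans in both Samples 4 and 5 and 0.872 times in Sample 3. In the farthest bin of the finer decay curve, all samples were below their trans density, with 0.766 in Sample 3 and 0.911 and 0.923 in Samples 4 and 5.

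The shape of the decline differed as well as its level. On log scales the slope from 100 kb to 1 Mb was -0.89 in Sample 3, -1.12 in Sample 4 and -1.12 in Sample 5. From 1 to 10 Mb it was -0.69, -1.08 and -1.06, so that Sample 3 declined less steeply by 0.38 on average while Samples 4 and 5 differed by about 0.02. From 10 to 100 Mb the order was reversed, with -1.51 in Sample 3, -0.57 in Sample 4 and -0.47 in Sample 5. Within these ranges the curve of Sample 3 had a shoulder. Its local slope was shallowest near 10 Mb, at -0.17, and steepest near 56.2 Mb, at -2.44. In Samples 4 and 5 the steepest local slopes, -1.65 and -1.63, came near 1.33 Mb. Flat stretches were present in them too, with -0.16 near 13.3 Mb in Sample 4 and -0.18 near 17.8 Mb in Sample 5, but the density was there 3.29 and 2.46 times that in trans, compared with 20.9 times near 10 Mb in Sample 3.

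**Figure D2:**
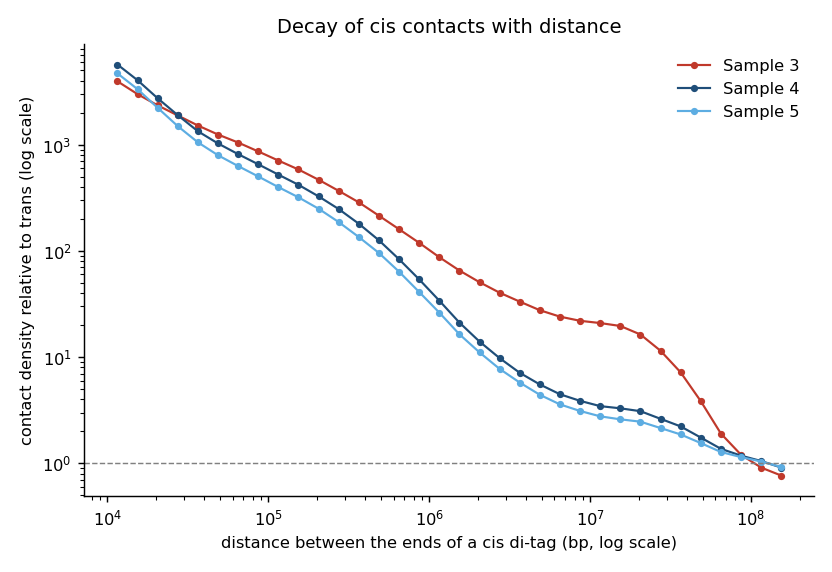
Contact density of cis di-tags relative to the trans density of the same sample (y, log scale) against the distance between the ends in bp (x, log scale), with 1 line for each sample and the trans density as a dashed line at 1. Sample 3 flattens to 22.0 to 19.6 around 10 Mb and then drops to the dashed line, crossing Samples 4 and 5 near 100 Mb.

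All chromosomes shared the excess at long range. Cis di-tags that joined 1 Mb regions from 10 to 49 regions apart made up 29.5 to 35.4% of the cis di-tags of a chromosome in Sample 3, against 11.5 to 15.7% in Sample 4 and 11.6 to 15.6% in Sample 5. Chromosome 19, the shortest autosome, had the lowest value in each sample.

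The position of the ends relative to the capture targets also differed. The list of targets was not used here, so 10 kb regions among the 10% most covered in all 3 samples, 17852 in number, stood in for captured regions. They held 36.7% of the di-tag ends in Sample 3, compared with 32.0% and 30.9% in Samples 4 and 5. Di-tags with no end in such a region were 37.5% of Sample 3 and 45.3% and 46.8% of the others, and di-tags with 1 captured end were 51.7%, 45.3% and 44.6%. The further reach of Sample 3 was present in each class. With no captured end, 64.9% of its cis di-tags spanned over 1 Mb, compared with 33.5% and 33.3%. With 1 captured end the shares were 65.7%, 38.4% and 40.1%, and with both ends captured they were 40.8%, 12.5% and 12.3%. The trans share of Sample 3 was below that of the others in each class too, but by less with both ends captured (33.2%, against 37.3% and 40.6%) than with 1 captured end (52.7%, against 71.6% and 75.7%). With both ends captured, the gap of Sample 3 to Sample 4 was 4.10 points and that between Samples 4 and 5 was 3.29 points.

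In trans, the pairing of chromosomes was set against the number of di-tags expected from the trans ends of each chromosome. Each of the 171 pairs of autosomes had at least 10348 di-tags in each sample. Pairing was more uneven in Sample 3. The SD over the pairs of the log2 observed over expected was 0.032 in Sample 3 and 0.012 in both Samples 4 and 5, and the noise limit was 0.032, a difference of 1.02-fold. Sample 3 stood apart as higher for 15 pairs (8.77% of those tested) and as lower for 9 (5.26%). By the construction of the limit, 1% of pairs differ by more than it between Samples 4 and 5, counting both directions. The shares of Sample 3 count 1 direction each.

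The pairs at both extremes had chromosome 19, the shortest autosome, in common. The log2 observed over expected of chromosomes 17 and 19 was 0.17 in Sample 3, 0.03 in Sample 4 and 0.02 in Sample 5, from 13496, 13140 and 13943 di-tags. This was the highest of all pairs in Sample 3 and lay 0.14 above the nearer sample. Next in the gap to the nearer sample came chromosome 19 with chromosome 16 (0.07, 0.01 and 0.00), chromosome 11 (0.05, -0.01 and -0.04) and chromosome 14 (0.08, 0.02 and 0.01). The fifth was chromosome 1 with chromosome 2, the longest pair, with 0.07, 0.01 and 0.01. At the other end, chromosome 19 was lower with chromosome 1 (-0.09 in Sample 3, against -0.00 and -0.01), with chromosome 3 (-0.09, -0.01 and 0.01), with chromosome 4 (-0.08, -0.01 and 0.00) and with chromosome 2 (-0.07, -0.01 and -0.01). The fifth by gap was chromosomes 1 with 17, with -0.06, 0.00 and -0.00. Of the 18 pairs that include chromosome 19, 7 stood apart as higher and 4 as lower.

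In Sample 3 chromosomes of like length were joined more often than chromosomes of unlike length. This grouping was chosen with the chromosome lengths in view, and the pairs share chromosomes, so the values are a description. Among the 5 longest autosomes, 1 to 5, the median log2 observed over expected of the 10 pairs was 0.03 in Sample 3 and 8 pairs were above 0. Among the 5 shortest, 15 to 19, it was 0.05 and all 10 pairs were above 0. Of the 25 pairs with 1 chromosome from each of these groups, 0 were above 0 in Sample 3 and the median was -0.03. Samples 4 and 5 had medians of 0.00 and 0.01 for the long pairs, 0.02 and 0.01 for the short pairs and -0.01 and -0.00 for the mixed pairs. In these samples 7 and 7 long pairs, 10 and 8 short pairs and 4 and 10 mixed pairs were above 0. Some order of the pairs was common to all samples. Across the 171 pairs, the values of Sample 3 correlated with those of Sample 4 at r = 0.493 and of Sample 5 at r = 0.381, and those of Samples 4 and 5 at r = 0.574.

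**Figure D3:**
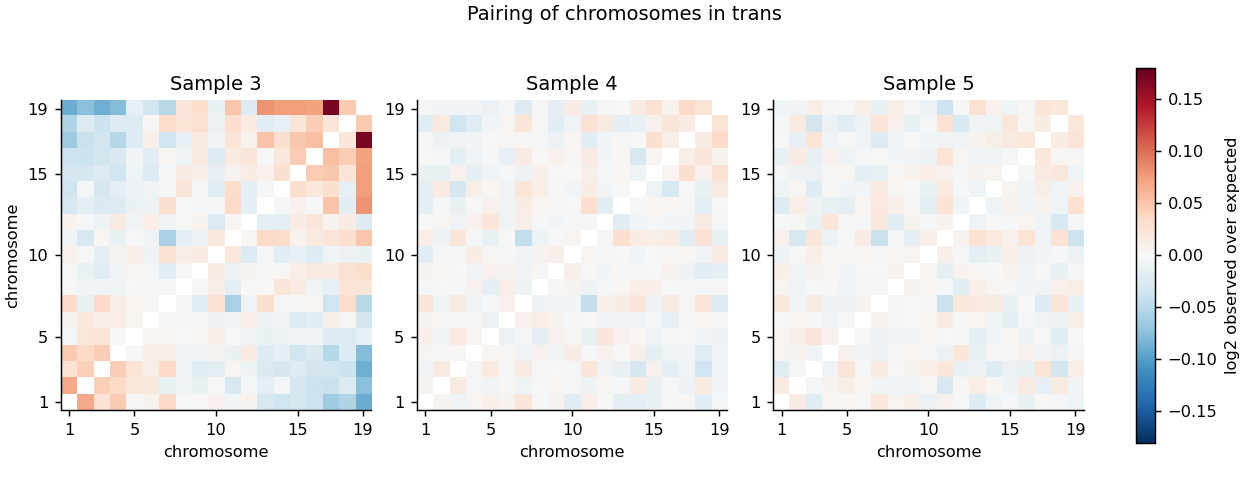
Log2 observed over expected trans di-tags for each pair of autosomes, with chromosome number on both axes and 1 panel for each sample on the same colour scale. In Sample 3 the corners of short with short (highest 0.17, chromosomes 17 and 19) and long with long chromosomes are red and the corners of long with short are blue (lowest -0.09), while Samples 4 and 5 lie between -0.04 and 0.03.

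Sample 3 also differed in where along the chromosomes its trans contacts fell. This comparison was chosen after the data were seen. Each chromosome was cut into 10 parts of equal numbers of 1 Mb regions, part 1 being the centromeric end and part 10 the distal end, and trans contacts between each pair of parts were set against the coverage of the regions in trans. In Sample 3 the log2 observed over expected was 0.63 between part 1 of different chromosomes, 0.54 between part 10 of different chromosomes and -0.48 between part 1 of one and part 10 of another. It was 0.07 between part 5 of different chromosomes. The values were not highest on the diagonal throughout. Part 3, for example, had 0.16 with part 3 of other chromosomes and 0.22 with part 1, and part 8 had 0.11 with part 8 and 0.17 with part 10. Over all combinations they ran from -0.48 to 0.63 in Sample 3, but only from -0.04 to 0.08 in Sample 4, and Sample 5 had values between -0.03 and 0.05. Contacts in trans thus followed position along the chromosome in Sample 3, with starts near starts and distal ends near distal ends.

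**Figure D4:**
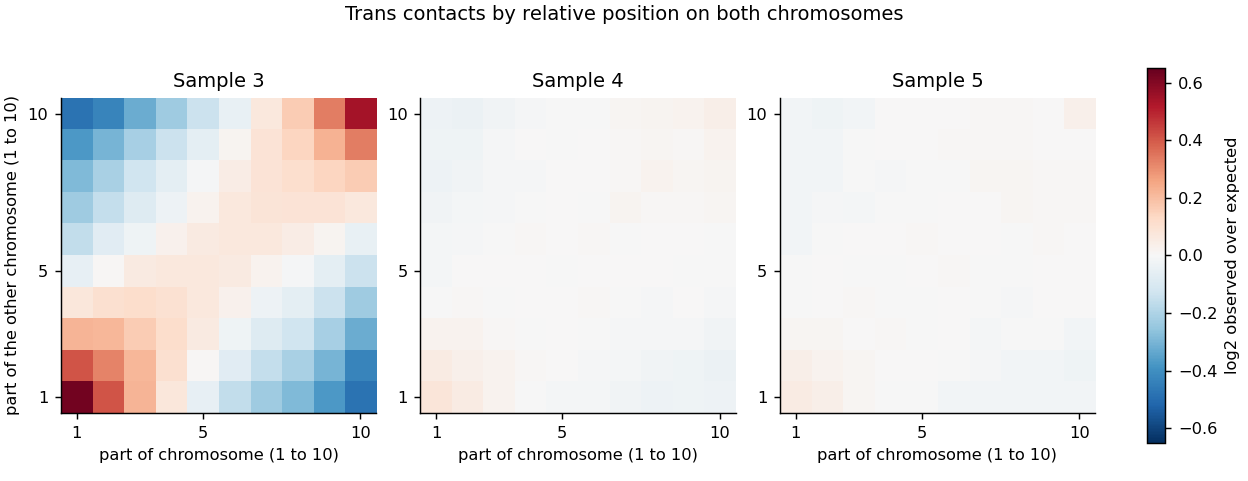
Log2 observed over expected trans di-tags by part of the chromosome in which each end lies, from 1 at the centromeric end to 10 at the distal end (both axes), with 1 panel for each sample on the same colour scale. Sample 3 has high values where like ends meet (0.63 and 0.54 at the corners of the diagonal) and low values where a start meets a distal end (-0.48), and Samples 4 and 5 stay between -0.04 and 0.08.

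The same was counted for the first 10 and last 10 tested 1 Mb regions of each chromosome. Between the starts of different chromosomes, Sample 3 had 42509 di-tags, Sample 4 had 32608 and Sample 5 had 34633, which is 1.60, 1.07 and 1.05 times the expected number. Between distal ends the numbers were 56112, 45097 and 47232, or 1.41, 1.03 and 1.02 times. Between a start and a distal end they were 46368, 71762 and 77016, or 0.710, 0.977 and 0.984 times. As a single value, the mean log2 of the 2 like combinations minus that of the unlike one was 1.08 in Sample 3, 0.10 in Sample 4 and 0.07 in Sample 5. Samples 4 and 5 differed in it by less than 0.03. The direction was the same in all 3 samples.

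Chromosome by chromosome, the start was joined to the starts of other chromosomes at 1.40 to 2.03 times the expected number in Sample 3, against 1.02 to 1.18 times in Sample 4 and 1.01 to 1.12 times in Sample 5, so that these ranges did not overlap. From the start to the distal ends of others the values were 0.609 to 0.813 in Sample 3 and not below 0.930 in Samples 4 and 5. From the distal end to other distal ends the median was 1.48 in Sample 3, against 1.03 and 1.02. The short chromosomes 15 to 18 were lower than this median in Sample 3, with 1.13, 1.26, 1.13 and 1.25. Chromosome 19 was the only one below expectation there, with 0.885 for its distal end with other distal ends and 0.968 with the starts of others. Its start behaved like the rest, with 1.499.

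Coverage, the share of di-tag ends in each 1 Mb region, was compared over the 2405 of 2482 regions that had at least 200 ends in every sample. Sample 3 was higher than both others beyond the noise limit of 0.18 on the log2 scale, or 1.13-fold, in 357 regions, 14.8% of those tested. It was lower in 920 regions, 38.3%. Shares add up to the whole in each sample, so a larger share in some regions lowers the others. The median log2 difference of Sample 3 to the mean of the others over all regions was -0.09. The values were not centred on it, so regions were called lower more readily than higher. Across regions the log2 shares of Samples 4 and 5 correlated at r = 0.998, those of Samples 3 and 4 at r = 0.970 and those of Samples 3 and 5 at r = 0.962. The median absolute difference was 0.22 between Sample 3 and the mean of the others and 0.05 between Samples 4 and 5.

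The difference moved with the number of captured 10 kb regions in a 1 Mb region. In the 703 regions with at most 1 of them, the median log2 difference of Sample 3 to the mean of the others was -0.47 and 84.1% stood apart as lower. In the 591 regions with 11 to 58 of them the median was 0.18, 45.01% stood apart as higher and 4.57% as lower. The difference of Sample 4 to Sample 5 moved the same way at a smaller size, with medians of -0.09 and 0.05 in these groups. When ends in captured 10 kb regions were left out, 489 regions stood apart as higher and 799 as lower. Captured regions were defined from the coverage of these same samples, so a place low in any of them could not count. The relation is therefore partly built in and is given as a description.

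Chromosome 8 was lower in Sample 3 than in Samples 4 and 5 along its whole length. It held 5.31% of the di-tag ends in Sample 3, compared with 6.86% and 6.83% in Samples 4 and 5. Chromosomes 9, 10 and 14, which are slightly shorter, held 5.83%, 4.83% and 4.07% in Sample 3. They held 5.36%, 4.90% and 4.44% in Sample 4 and 5.35%, 4.90% and 4.46% in Sample 5. Chromosome 8 was thus above all of them in Samples 4 and 5 and within their range in Sample 3. Which side departs from the usual level was not tested. Of its 126 tested regions, 107 stood apart as lower (84.9%, compared with 16.0 to 55.4% on the other chromosomes) and 2 as higher. The median log2 difference over its regions was -0.47, whereas the medians of the other chromosomes lay between -0.24 and 0.09. In blocks of 10 Mb the median was below 0 in every block of the chromosome, from -0.29 between 120 and 130 Mb to -0.89 between 50 and 60 Mb. The median log2 difference of Sample 4 to Sample 5 there was -0.01. The lower level was seen in the ends of cis di-tags (median -0.53) and of trans di-tags (-0.41), and outside captured regions (-0.44). In its pairing with other chromosomes, which is set against its own trans ends, chromosome 8 did not stand out, with 18 pairs between -0.02 and 0.02 in Sample 3.

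**Figure D5:**
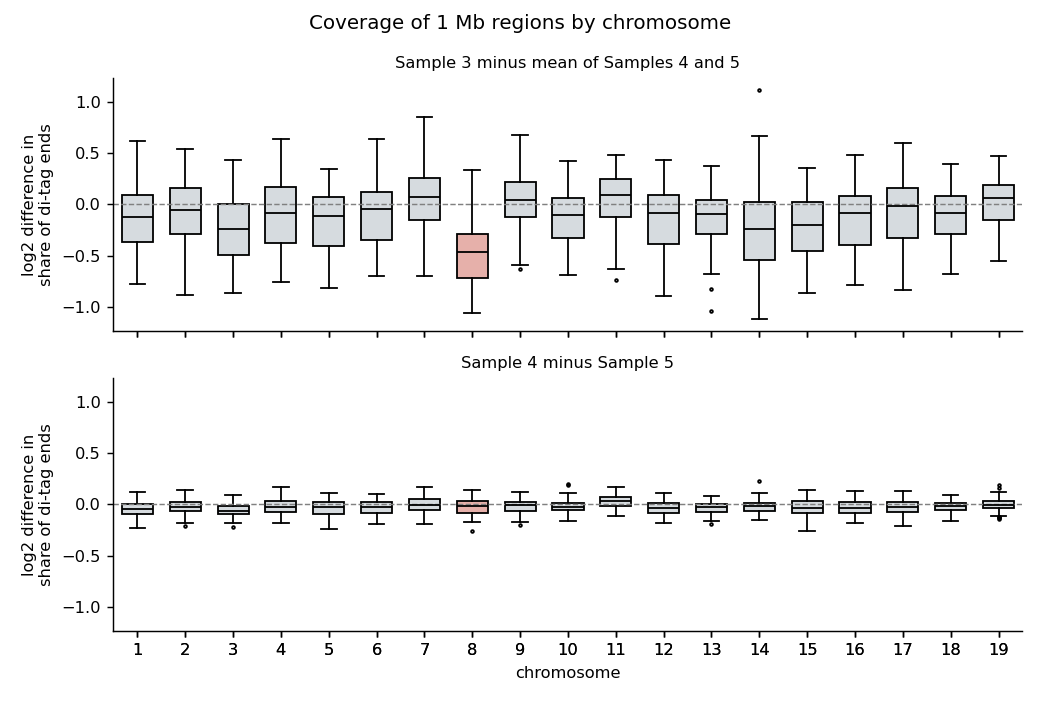
Log2 difference in the share of di-tag ends for 1 Mb regions by chromosome, for Sample 3 minus the mean of Samples 4 and 5 (top) and Sample 4 minus Sample 5 (bottom), as boxes from the lower to the upper quartile with the median as a line, whiskers to the farthest value within 1.5 box heights and points beyond. Chromosome 8, in red, has a median of -0.47 in the top panel and -0.01 in the bottom panel.

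Some of the regions that stood apart adjoined one another, and others were single. The longest run of adjoining lower regions held 38 regions, chr14:80000001-118000000 on mm9. The next held 19 regions, chr4:64000001-83000000. Runs of higher regions were shorter, and the longest held 14 regions, chr4:128000001-142000000. Chromosome 4 thus carried long runs of both directions.

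The 5 regions with the largest gap above Samples 4 and 5 lay on 4 chromosomes. The region chr14:69000001-70000000 had 13264 ends in Sample 3 and 5629 and 5719 in Samples 4 and 5, or 736, 340 and 338 per 1000000 ends, 2.17 times the mean of the others. Much of this came from few places. The 10 kb region chr14:69900001-69910000 alone had 2253, 332 and 297 ends and made up 26.8% of the difference. A neighbour, chr14:69950001-69960000, had 1130, 123 and 130 ends and made up 13.9%. The second region, chr7:52000001-53000000, had 1794, 1050 and 932 ends per 1000000, 1.81 times the mean, and held 45 captured 10 kb regions. Here the difference was spread out, and the 10 kb region that gave most made up 4.48% of it.

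The other 3 of these regions differed by less. The region chr14:52000001-53000000 had 522, 332 and 323 ends per 1000000, 1.59 times the mean. For chr9:106000001-107000000 the values were 1153, 737 and 708 per 1000000, or 1.60 times. For chr6:137000001-138000000 they were 429, 272 and 279 per 1000000, or 1.56 times, although this region held only 1 captured 10 kb region. With ends in captured 10 kb regions left out, the log2 difference of these 5 regions was between 0.76 and 1.13, compared with 0.64 to 1.12 for all ends. Leaving these ends out also changes the total from which every share is taken.

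The 5 regions with the largest gap below Samples 4 and 5 held no captured 10 kb region, and 4 of them lay in the long run on chromosome 14. The region chr14:113000001-114000000 had 97.9 ends per 1000000 in Sample 3, 205 in Sample 4 and 221 in Sample 5, 0.459 times the mean of the others. The regions chr14:91000001-92000000 and chr14:92000001-93000000 had 94.6 and 101 ends per 1000000 in Sample 3. They had 193 and 204 in Sample 4 and 212 and 218 in Sample 5. In chr14:89000001-90000000 the values were 116, 232 and 255. The remaining region, chr8:61000001-62000000, had 128, 256 and 279 ends per 1000000, 0.478 times the mean. In these regions the difference was even, and no 10 kb region made up more than 4.02% of it. With ends in captured 10 kb regions left out, their log2 differences were -1.01 to -0.94, compared with -1.12 to -1.06 for all ends. In chr14:113000001-114000000, 89.5% of the cis di-tags of Sample 3 spanned more than 1 Mb, compared with 68.6% and 65.5%, whereas over all cis di-tags the shares were 61.8%, 31.7% and 32.1%, so the longer reach of Sample 3 was not particular to this region.

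At 10 kb, some places with many ends in Sample 3 had next to none in Samples 4 and 5. Of the 55517 regions of 10 kb with at least 5 ends per 1000000 in Sample 3, 20 had less than 0.1 times their rate in both other samples. In the opposite direction there was 1, chr2:98500001-98510000, with 10 ends in Sample 3 and 198 and 154 in Samples 4 and 5. Between Samples 4 and 5, 0 regions differed that much in either direction. The threshold was chosen after the coverage was seen. The 20 regions had 117 to 469 ends in Sample 3, 0 to 23 in Sample 4 and 1 to 21 in Sample 5. They lay on 7 chromosomes, with 4 each on chromosomes 6, 8 and 14.

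The largest of them was chr14:52500001-52510000, within one of the 5 regions of 1 Mb with the largest gap above. It had 469 ends in Sample 3, at 274 distinct positions, but 3 in Sample 4 and 2 in Sample 5. Of the 469 di-tags there, 245 were in trans and 141 were in cis over more than 1 Mb, so they were not repeats of a single contact. The region chr8:19370001-19380000 had 203, 0 and 1 ends, and chr6:135310001-135320000 had 136, 0 and 1. Of chr9:110780001-110790000 there were 265, 1 and 3 ends, and of chr17:36890001-36900000 there were 211, 2 and 2. None of the 20 is among the captured regions, as follows from the definition of these.

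Contacts between pairs of 1 Mb regions in cis were set against the number expected from distance and coverage. At this depth, 3125 of 158042 pairs at least 2 regions apart had 20 di-tags or more in every sample, and 1715 of these were 2 or 3 regions apart. The noise limit was 0.82 on the log2 scale, or 1.76-fold. Sample 3 was higher in 37 pairs, 1.18% of those tested, and lower in 132, 4.22%. Together these were 169 of 3125 pairs. Between Samples 4 and 5, 1% of pairs differ by more than the limit by construction, counting both directions. The calls of Sample 3 use the gap to the nearer sample, so that 1% is not a like measure. As pairs had to reach the minimum in the samples with fewer distant contacts, those tested tended to be high for their distance in Samples 4 and 5. The median log2 observed over expected of pairs 10 to 19 regions apart was 0.20 in Sample 3, 0.45 in Sample 4 and 0.50 in Sample 5. Across the tested pairs, Samples 4 and 5 correlated at r = 0.802, and Sample 3 with them at r = 0.460 and r = 0.414. As the pairs were selected mainly through Samples 4 and 5, these correlations are a description and nothing is read from their order.

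Region pairs were ranked by the gap of Sample 3 to the nearer of Samples 4 and 5. The pair with the widest gap above them joined chr9:64000001-65000000 with chr9:66000001-67000000, by 317 di-tags in Sample 3 but 34 and 33 in Samples 4 and 5, and its log2 observed over expected was 1.44, -0.41 and -0.33. The second by gap joined chr4:132000001-133000000 with chr4:134000001-135000000, by 362, 41 and 29 di-tags (1.60, 0.04 and -0.15). It lay within the longest run of regions of higher coverage. The third joined chr8:85000001-86000000 with chr8:87000001-88000000, by 156, 26 and 23 di-tags (-0.08, -1.83 and -1.55).

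The 3 pairs with the widest gap below had few di-tags. Between chr10:14000001-15000000 and chr10:17000001-18000000 there were 25, 26 and 22 (-0.73, 0.93 and 1.23). Between chr7:75000001-76000000 and chr7:77000001-78000000 there were 25, 39 and 33 (-1.05, 0.71 and 0.58). Between chr2:88000001-89000000 and chr2:90000001-91000000 there were 27, 45 and 31 (-0.997, 0.76 and 0.61). These pairs could enter only with 20 di-tags in Samples 4 and 5, so their lower value in Sample 3 is given as a description and nothing is read from it.

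The contact profile, a value for each region that places it on one or the other side of the chequered pattern of its chromosome, was taken as the first eigenvector of the correlations of observed over expected. It was noisy. Over the chromosomes the correlation of Samples 4 and 5 ran from -0.05 to 0.91, and the noise limit was 3.30 SD. Sample 3 stood apart in 0 of 2405 regions (0%). An eigenvector of the residuals of the counts, added after the data were seen, was steadier, with correlations between Samples 4 and 5 of 0.59 to 0.96 and a limit of 1.55 SD. By it, Sample 3 was higher in 28 regions (1.16%) and lower in 22 (0.915%). Together these were 50 of 2405 regions. Between Samples 4 and 5, 1% of regions differ by more than the limit by construction, counting both directions. The calls of Sample 3 use the gap to the nearer sample, so that 1% is not a like measure. Of the regions called, 6 and 7 were among the 153 tested on chromosome 4. On chromosome 1 there were 5 and 2 among 194, and on chromosome 5 there were 0 and 5 among 150. By the residual profile, the correlation of Samples 4 and 5 was the highest of the 3 on 17 of 19 chromosomes, with a median of 0.881 against 0.794 for Samples 3 and 4 and 0.753 for Samples 3 and 5. By the first profile it was the highest on 8 of 19, with medians of 0.581, 0.592 and 0.456 in the same order.

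Regions were again ranked by the gap of Sample 3 to the nearer of Samples 4 and 5. The widest gaps above them were those of chr1:87000001-88000000 (0.29, against -3.80 and -8.81) and chr1:85000001-86000000 (-1.13, against -3.94 and -8.80). In both, Samples 4 and 5 differed from each other by more than the gap of Sample 3, and chromosome 1 had the lowest correlation between them, 0.590. These regions were joined to each other by 118, 153 and 188 di-tags, with a log2 observed over expected of 1.29, 2.69 and 3.04. The pair was thus above expectation in all samples and stood apart as lower in Sample 3. Then came chr4:109000001-110000000, with 0.68, -2.00 and -2.84, chr4:114000001-115000000, with -0.54, -3.05 and -3.72, and chr16:58000001-59000000, with 1.14, -1.16 and -1.64. The widest gap below was that of chr1:90000001-91000000, with -3.40 against 1.87 and 1.54. It was followed by chr4:139000001-140000000 (-1.56, 1.90 and 2.28), chr5:113000001-114000000 (-1.67, 1.21 and 2.18), chr13:56000001-57000000 (-0.52, 2.12 and 2.45) and chr5:117000001-118000000 (-1.13, 1.31 and 1.91). The region chr1:90000001-91000000 was joined to chr1:3000001-4000000 by 84, 35 and 24 di-tags (log2 observed over expected 4.64, 3.28 and 2.52). On chromosome 1 the profile of Sample 3 correlated with those of Samples 4 and 5 at r = 0.604 and r = 0.217. The part of this pair of regions in the profile was not tested.

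The strength of the chequered pattern was described by splitting the regions of each chromosome into 3 groups of equal size by the mean residual profile of all samples, and setting the upper group against the lower. The groups were made from the same cis contacts, so the cis values are a description. In cis, contacts of upper with upper regions were 1.12, 1.14 and 1.12 times the expected number in Samples 3, 4 and 5, those of lower with lower regions 1.25, 1.19 and 1.17 times, and those of upper with lower regions 0.821, 0.835 and 0.861 times. Some excess of like over unlike contacts in cis was built in by this choice of groups. As a log2 contrast of like over unlike, the cis values were 0.53, 0.48 and 0.41. The gap of Sample 3 to Sample 4 was smaller than that between Samples 4 and 5. In trans, away from the ends of the chromosomes, the contrast was 0.11 in Sample 3 but -0.06 in Sample 4 and -0.06 in Sample 5. Upper with upper and lower with lower contacts were 1.04 and 1.05 times the expected number in Sample 3. They were 0.977 and 0.982 times in Sample 4 and 0.977 and 0.984 times in Sample 5. Upper with lower contacts were 0.969, 1.02 and 1.02 times in Samples 3, 4 and 5. In Samples 4 and 5 like regions were thus joined less than unlike ones in trans, the reverse of a chequered pattern. The part of capture in these trans values was not tested.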

How the data were processed

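Per the labels, the 3 libraries were made from formaldehyde-fixed cells by HindIII digestion, biotin fill-in, ligation, sonication and capture. With HiCUP, the authors cut reads at the junction of ligation, aligned the reads of a pair one by one, filtered out artefacts and collapsed duplicates. The submitters' processing notes name Bowtie 1.1.0 and mm9. The deposited lists hold positions and no measured level, so di-tags were counted, with Python 3.11.15, numpy 2.4.6 and scipy 1.17.1.

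Chromosome lengths were the largest positions listed. Expected trans counts were fitted so that each chromosome or region kept its trans ends, and expected cis counts from distance and cis coverage. Regions of 1 Mb needed 200 ends, and region pairs 20 di-tags, in every sample. Regions and pairs named were the 5 (region pairs: 3) with the widest gap on each side. The 10% most covered 10 kb regions stood in for captured ones. The calls in coverage and in chromosome pairs and the slope from 1 to 10 Mb were run on simulated data. The other measures were not. The members, measures and lists were chosen with earlier results of these data known. Alternatives changed the duplicates, depth, limits, region sizes, ends and samples used.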

Additional observations from a re-analysis of the deposited data

How the results depend on the processing

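Sample 3 kept its direction in trans share, reach, slope from 1 to 10 Mb and the contrast of chromosome ends under every alternative run. The difference in trans share was -18.0 points and moved to -5.75 with both ends captured, -21.0 with 1 captured end and -21.6 without cis di-tags under 10 kb. The difference in the share beyond 1 Mb, 29.8 points, became 29.5 with duplicates retained, 28.4, 26.4 and 31.5 with both, 1 and no captured ends, and 24.6 without cis di-tags under 10 kb. That in slope, 0.38, became 0.36 with duplicates retained and 0.26, 0.34 and 0.46 with both, 1 and no captured ends. The contrast of chromosome ends, 0.99, was 1.09 with duplicates retained, 0.88 with no captured end, and 1.13 and 0.78 with 5 and 20 regions at each end. Leaving out Sample 4 or Sample 5 gave -20.1 to -15.9 points for trans share.

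Counts moved more. The 24 chromosome pairs that stood apart became 43 at the 95th percentile, 13 with duplicates retained and 106 with the expected number from all ends (66 higher, 40 lower). The 1277 regions in coverage became 821 with duplicates retained, 646 for the ends of cis di-tags, 2539 at 500 kb and 640 at 2 Mb, the last 2 over 4771 and 1219 regions. The 169 of 3125 region pairs became 387 at the 95th percentile and 458 with the expected number from distance alone (161 higher, 297 lower). With duplicates retained, 259 of 37960 region pairs stood apart (8 higher, 251 lower). At 2 Mb it was 96 of 8891, and with at least 50 di-tags 73 of 324. The numbers tested differ, so these counts cannot be compared as such. Leaving out Sample 4 or Sample 5, with the noise limit kept, gave 321 to 352 of the 3125 region pairs. The 0 regions in contact profile became 17 at the 95th percentile, 2 with duplicates retained, 2 at 2 Mb, 1 without contacts beyond 10 Mb, 50 from residuals and 14 to 19 without Sample 4 or 5. The causes were not tested. Thinning all samples to 8269676 di-tags gave 21 chromosome pairs, 1271 regions, 166 region pairs and 0 profiles. At this depth 3125 of 158042 region pairs could be compared. No paired analysis was possible because the 2 groups share fewer than 2 replicate numbers.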
